A study of Xenopus tropicalis with 12 samples.

Results

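Albumin and 4 other abundant secreted liver proteins were followed by their messenger RNA in the liver of *Xenopus tropicalis*, a frog whose tadpoles pass through metamorphosis under thyroid hormone. The 5 genes were *alb*, *serpina1*, *fetub*, *itih2* and *ambp*, taken by name from the 26529 genes of the deposited count table. All 5 were found in every library and passed the filter on low counts, which 15102 genes passed. Liver RNA had been taken from wild-type tadpoles of 1 set of parents and sequenced as 12 libraries in 4 groups of 3. Untreated animals were sampled at stage 54 (st54, before the hormone rises), at stage 61 (st61, the climax of metamorphosis) and at stage 66 (st66, its end). The fourth group (T3) was at stage 54 and had been kept for 18 h with 10 nM of the active hormone triiodothyronine (T3). The series describes the replicates as biological and from different tadpoles, and the comparisons ask how the liver changes through metamorphosis and how much of that change the hormone alone brings about in a young tadpole.

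Hepatocytes make most of the proteins of blood plasma and release them into the circulation. Albumin is the main carrier and osmotic protein of plasma, and in frog tadpoles it is known to rise in the blood during metamorphosis. The other proteins largely hold proteases in check: alpha-1-antitrypsin, encoded by *serpina1*, inhibits neutrophil elastase in mammals, and fetuin-B, encoded by *fetub*, inhibits proteases of the astacin family in mammals. *ambp* encodes a precursor that is cut into alpha-1-microglobulin, a lipocalin that binds heme, and bikunin, a trypsin inhibitor. In mammals bikunin is joined through a chondroitin sulfate chain to heavy chains such as that encoded by *itih2*, which gives the inter-alpha-trypsin inhibitors, and the heavy chains can be passed on to hyaluronan in the matrix between cells.

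Each gene is placed here by the coordinates of the deposited table, which for 99.1% of genes equal those of the UCB_Xtro_10.0 assembly. *alb* lay on the minus strand of chromosome 1 (80147989 to 80160260, 15 exons after merging, 1989 exonic bases). *serpina1* lay on the minus strand of chromosome 8 (88349036 to 88357067, 7 merged exons, 2125 exonic bases), and *ambp* on the plus strand near the other end of that chromosome (2830410 to 2835173, 10 merged exons, 1258 exonic bases). *fetub* lay on the minus strand of chromosome 5 (105984080 to 105992226, 7 merged exons, 1302 exonic bases). *itih2* lay on the minus strand of chromosome 3 (83784189 to 83813163, 21 merged exons, 3212 exonic bases). Counts are of reads over whole genes, exons combined, and the strand setting of the counting is not given in the sources used here.

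The libraries held 7928459 to 39536147 counts and 16272 to 18922 detected genes. All 12 hepatocyte markers outside the 5 genes were detected, and together they made up 42760 to 69570 CPM (the count divided by the column total, times 1000000) in each library. *thrb*, the receptor gene that thyroid hormone induces, was at 0.481 to 1.57 CPM in st54 and 29.1 to 30.4 CPM in T3. Libraries of a group did not lie equally close. T3 had by far the smallest biological coefficient of variation, 2.6%, against 33.7% for st54, 23.9% for st61 and 40.2% for st66. Pairs of T3 libraries differed by a chi-square of 1.96 to 5.40 per gene, which is more than sampling noise, and pairs in the other groups by 15.1 to 179. All 3 were treated as separate samples, as labelled. In st66, replicate 1 stood apart from replicates 2 and 3: ribosomal protein genes took 7.94% of its counts against 16.5% and 16.8%. It was replicates 2 and 3 that had the largest ribosomal shares of the 12 libraries. They also had the smallest totals (7928459 and 8506341 counts) and the fewest detected genes (16272 and 16780). Their TMM factors, the scaling of the tests below, were 0.747 and 0.785, against 1.14 for replicate 1. Which of them is typical of st66 could not be worked out. In st54, replicate 3 had the largest ribosomal share, 12.9% against 9.77% and 8.83%. Results that rest on these libraries are given with and without them.

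The 5 genes stood among the most abundant of the liver. *alb* ranked between 1 and 3 by CPM in every library, *serpina1* between 4 and 17, *fetub* between 8 and 52, *ambp* between 9 and 66 and *itih2* between 6 and 107. Counts of single genes ran from 14379 to 327205, so that counting error was at most 0.834% of a value and the spread between libraries set the precision. That error is a lower limit, because the reads carry no molecular identifiers. Together the 5 genes took 3.02% ± 0.193 of all counts in st54 (mean ± SD, n = 3, as throughout), 3.02% ± 0.0986 in st61, 2.93% ± 0.362 in st66, with 2.54% ± 0.132 in T3.

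*alb*, the most abundant of the 5, was at 11363, 11134 and 9225 CPM in st54 replicates 1 to 3, at 11311, 10735 and 13092 CPM in st61 and at 11518, 15612 and 11942 CPM in st66. In the T3 libraries *alb* was at 7229, 7739 and 8094 CPM. The T3 libraries were the lowest of the 12, and the highest value was that of st66 replicate 2. For how many of all genes the T3 libraries were the lowest is not given here. The order of group means was T3 (7687 ± 435 CPM), st54 (10574 ± 1174), st61 (11713 ± 1229) and st66 (13024 ± 2251), with overlapping libraries between st61 and each of its neighbours in that order.

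*serpina1* was at 4610, 4935 and 4753 CPM in st54, at 6558, 6590 and 6176 CPM in st61 and at 7340, 8170 and 6733 CPM in st66. In T3 it was at 4499, 4773 and 5089 CPM. All st61 and st66 libraries lay above all st54 libraries, and by CPM the T3 libraries overlapped those of st54. On the TMM scale of the tests below every T3 library lay below every st54 library. How many of all genes separate in this way is not given here. Group means were 4766 ± 163 CPM in st54, 4787 ± 295 in T3, 6441 ± 230 in st61 and 7415 ± 721 in st66.

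*fetub* was at 4980, 5014 and 5547 CPM in st54, at 4453, 4345 and 3757 CPM in st61 and at 3804, 3708 and 2983 CPM in st66. In T3 it was at 4441, 4747 and 4990 CPM. By CPM its highest mean was thus that of st54 and its lowest that of st66, with T3 between. Group means were 5180 ± 318 CPM in st54, 4726 ± 275 in T3, 4185 ± 375 in st61 and 3498 ± 449 in st66, and the T3 libraries overlapped those of both neighbours in that order. Libraries of st61 and st66 overlapped as well, at 3757 and 3804 CPM. On the TMM scale of the tests below, the lowest mean was that of T3 (3895 ± 322, against 4039 ± 834 in st66).

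*ambp* was at 4771, 4523 and 5020 CPM in st54, at 3565, 3737 and 4509 CPM in st61 and at 2593, 3147 and 2546 CPM in st66. In T3 it was at 3411, 3493 and 3696 CPM. By CPM the st54 libraries were the highest and the st66 libraries the lowest, without overlap with any other group, and st61 and T3 overlapped between them. How many of all genes separate in this way is not given here. Group means were 4771 ± 248 CPM in st54, 3937 ± 502 in st61, 3533 ± 147 in T3 and 2762 ± 334 in st66. On the TMM scale of the tests below, the lowest mean was that of T3 (2911 ± 193, against 3247 ± 966 in st66). There the st66 libraries overlapped those of T3 and st61.

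*itih2* varied most of the 5 within st54 and within st66 (coefficient of variation 26.7% and 36.2%). It was at 5257, 6030 and 3473 CPM in st54, at 3550, 4456 and 3784 CPM in st61 and at 3534, 2455 and 1690 CPM in st66. In T3 it was at 4459, 4651 and 4799 CPM. The low st54 value was that of replicate 3 and the high st66 value that of replicate 1, and they overlapped at 3473 and 3534 CPM. Group means were 4920 ± 1311 CPM in st54, 4637 ± 170 in T3, 3930 ± 470 in st61 and 2560 ± 926 in st66.

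**Figure D1:**
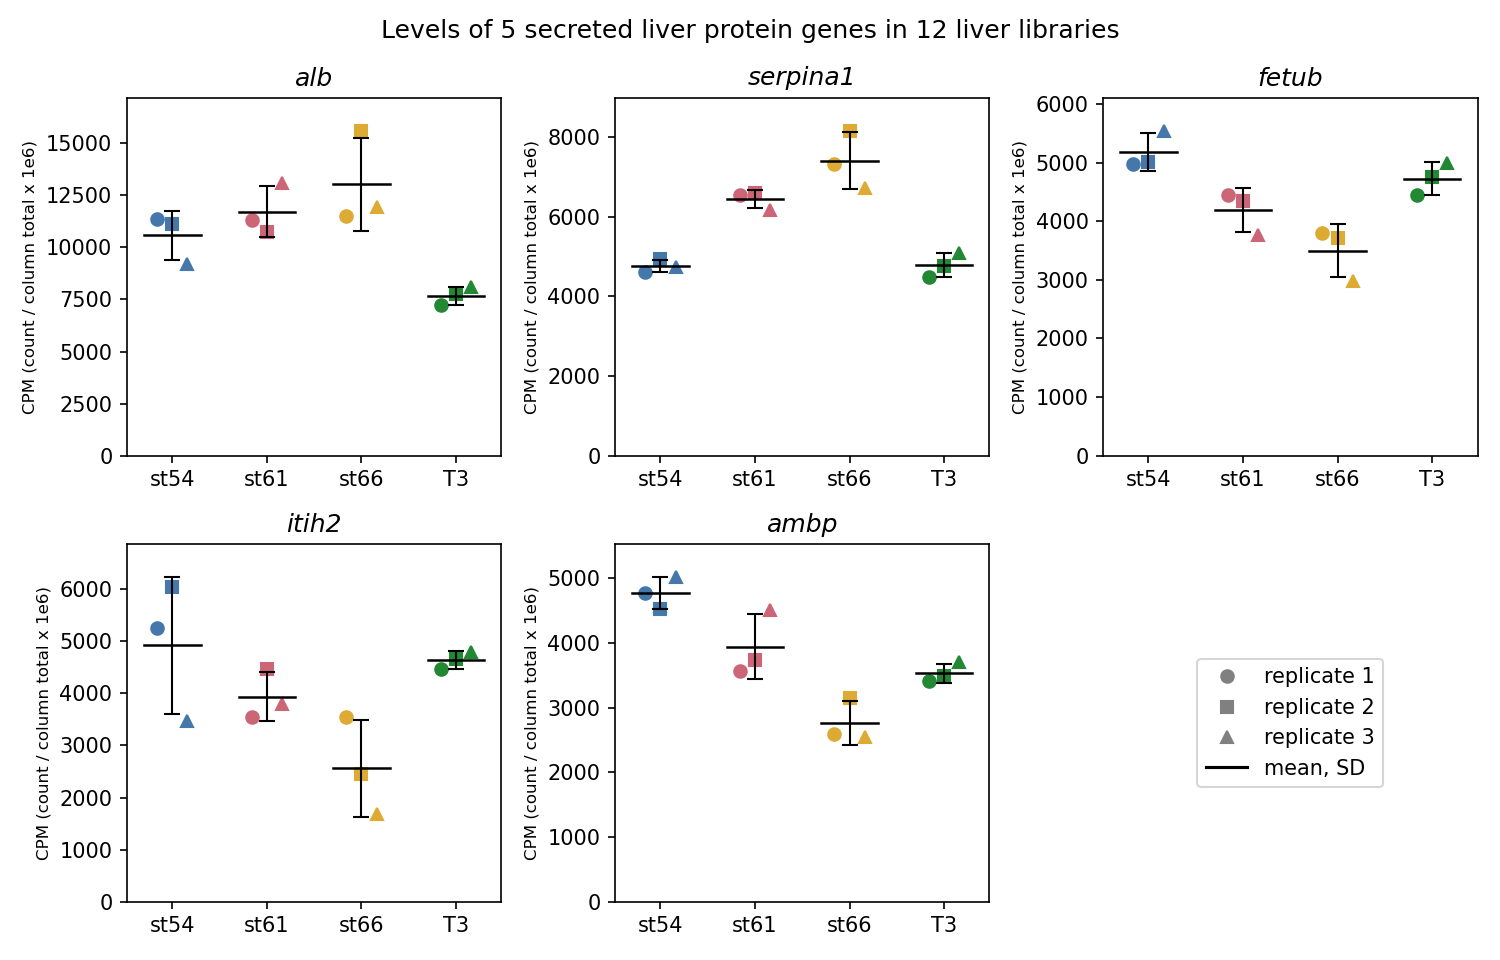
Levels of the 5 genes in CPM (vertical axes, from 0) in the 3 libraries of each group, with the replicate number as symbol and bars for the mean and SD. *alb* lies lowest in T3 (7229 to 8094 CPM), *serpina1* is higher in st61 and st66 than in st54, and *fetub*, *ambp* and *itih2* have their lowest means in st66. On the TMM scale of the tests the lowest means of *fetub* and *ambp* were those of T3.

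Per length, in TPM (length-corrected counts from the summed exon lengths of the table, scaled to a total of 1000000), the order of the genes differed between groups. In st54 *alb* was at 8078 ± 1334 TPM, *fetub* at 6006 ± 103, *ambp* at 5727 ± 116, *serpina1* at 3395 ± 269 and *itih2* at 2343 ± 744. In st66 *serpina1* stood next to *alb*, at 5004 ± 865 against 9305 ± 1351 TPM, followed by *fetub* at 3887 ± 989, *ambp* at 3134 ± 453 and *itih2* at 1183 ± 607. T3 kept the st54 order, with *fetub* at 6142 ± 265 TPM close to *alb* at 6540 ± 272. In every group the heavy chain transcript was below the *ambp* transcript per length.

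From stage 54 to stage 61 *serpina1* had the largest change of the 5 genes, 0.48 on the log2 scale, and the other 4 lay between -0.28 and 0.20. None of the 5 passed the test (0 of 5 in edgeR, 0 of 5 in DESeq2, and 0 with p under 0.05 before adjustment), against 10.0% of all tested genes called higher and 8.85% called lower. The test was edgeR's quasi-likelihood test with TMM scaling (factors that set the bulk of genes equal between libraries) and Benjamini-Hochberg adjustment over 15102 genes, with a call at an adjusted p under 0.05. In that test the log2 change of *serpina1* was 0.48 (standard error 0.227, 95% interval -0.02 to 0.98, adjusted p = 0.176), with all 3 st61 libraries above all 3 st54 libraries. In *fetub* all 3 st61 libraries lay below all 3 st54 libraries, by CPM as well as after TMM scaling. In *ambp* they did so by CPM but overlapped after TMM scaling. The share of all genes separated in this way is not given here. *alb* changed by 0.20 (interval -0.40 to 0.79, adjusted p = 0.687). *fetub* changed by -0.26 (interval -0.73 to 0.21), *itih2* by -0.28 (interval -0.83 to 0.27) and *ambp* by -0.23 (interval -0.76 to 0.30), with edgeR adjusted p of 0.456, 0.501 and 0.576. These intervals leave room for changes of up to 1.97-fold in *serpina1* and 1.73-fold in *alb*. Without st66 replicate 1 in the shared fit, *serpina1* was called (adjusted p = 0.0179 in edgeR), with the same change.

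The composition of the RNA moved over the same interval. The 8 fibroblast and stellate cell markers summed to 229 to 516 CPM in st54 and 1368 to 2489 CPM in st61, with 7 of the 8 called higher. The 8 erythroid markers found in the table summed to 1540 to 3254 CPM in st54 and 7097 to 8557 CPM in st61, with 2 of 8 called higher and 1 lower. That sum was carried by the globin genes *hba1* (mean 231.7 to 2866 CPM) and *hbg1* (199.5 to 3087 CPM). The globin gene *hbe1* went down (38.9 to 0.332 CPM). The erythroid markers *alas2* (1287 to 1378 CPM), *slc4a1* (394.2 to 354.8 CPM) and *gata1* (91.2 to 72.5 CPM) moved little, so the sum does not stand for erythroid markers in general. Hepatocyte markers summed to 47010 to 48280 CPM in st54 and 58620 to 69570 CPM in st61, with 3 of 12 called higher and 2 lower. In bulk tissue fewer cells of a type and less RNA per cell cannot be told apart, and the part of these shifts in the changes of the 5 genes was not tested.

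From stage 54 to stage 66 the 5 genes parted in direction: *serpina1* rose, *alb* had a higher mean, and *fetub*, *ambp* and *itih2* had lower means. *serpina1* rose 1.79-fold (95% interval 1.27 to 2.53, log2 change 0.84, standard error 0.228, edgeR adjusted p = 0.0312). It was the 1 gene of the 5 called higher, against 8.23% of all genes called higher, and 0 of the 5 were called lower, against 5.48% of all genes. *itih2* was at 0.571 of its st54 level (log2 change -0.81, interval -1.36 to -0.25, edgeR adjusted p = 0.0555), *ambp* at 0.670 (log2 change -0.58, adjusted p = 0.144) and *fetub* at 0.768 (log2 change -0.38, adjusted p = 0.275). All 3 had every TMM-scaled st66 level below every st54 level, and the share of all genes separated in this way is not given here. *alb* changed by 0.52 (interval -0.07 to 1.12, edgeR adjusted p = 0.237), with overlapping TMM-scaled libraries.

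The call of *serpina1* was close to the threshold: it ended in 9 of the 12 fits that left out 1 library each, all but those without st61 replicate 1, st61 replicate 3 or st66 replicate 1 (edgeR adjusted p 0.000646 to 0.112 over the 12), and with the replicate number as a block (adjusted p = 0.0518), while its log2 change stayed between 0.64 and 1.01 when 1 library was left out. Without st66 replicate 1 *alb* was called higher (0.75, adjusted p = 0.00999) and *itih2* lower (adjusted p = 0.0221), and without st54 replicate 3 *itih2* was called lower (adjusted p = 0.0162). With st54 replicate 3 and st66 replicate 1 both left out, a choice made after seeing the data, edgeR called *alb* higher (log2 change 0.67, adjusted p = 0.0146) and *itih2* lower (-1.07, adjusted p = 0.00175). Ribosomal shares were then 9.77% and 8.83% in st54 and 16.5% and 16.8% in st66, so that stage and this share could not be told apart. With st66 replicate 1 as the only st66 library the change of *alb* was -0.08. DESeq2 called *itih2* (adjusted p = 0.00212) and *ambp* (adjusted p = 0.0434) lower. On plain column totals, which moved the median of all genes by -0.128, edgeR called *fetub* (adjusted p = 0.0396), *itih2* (0.0457) and *ambp* (0.00811) lower. The shares of all genes called by DESeq2 or on plain totals are not given here. Erythroid markers summed to 10000 to 12440 CPM in st66, with 2 of 8 called higher and 1 lower than in st54 and *hba1* and *hbg1* at means of 4357 and 5075 CPM, and fibroblast markers to 769 to 1571 CPM with 7 of 8 called higher than in st54, and their part in these changes was not tested.

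From stage 61 to stage 66 no gene of the 5 passed the edgeR test (0 of 5, 0 of 5 in DESeq2, and 0 with p under 0.05 before adjustment), against 5.75% of all genes called higher and 4.28% called lower. The log2 changes were 0.33 in *alb* (interval -0.27 to 0.92), 0.36 in *serpina1* (-0.14 to 0.86), -0.12 in *fetub* (-0.59 to 0.35), -0.35 in *ambp* (-0.88 to 0.19) and -0.53 in *itih2* (-1.08 to 0.03). These values turn on which st66 libraries are in the fit. Without st66 replicate 1, *alb* (log2 change 0.55, edgeR adjusted p = 0.0365) and *serpina1* (0.53, adjusted p = 0.0174) were called higher. With that library as the only one of st66, both changes were below 0 (-0.28 and -0.06) and *ambp* was called lower (-0.85, adjusted p = 0.0259).

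**Figure D2:**
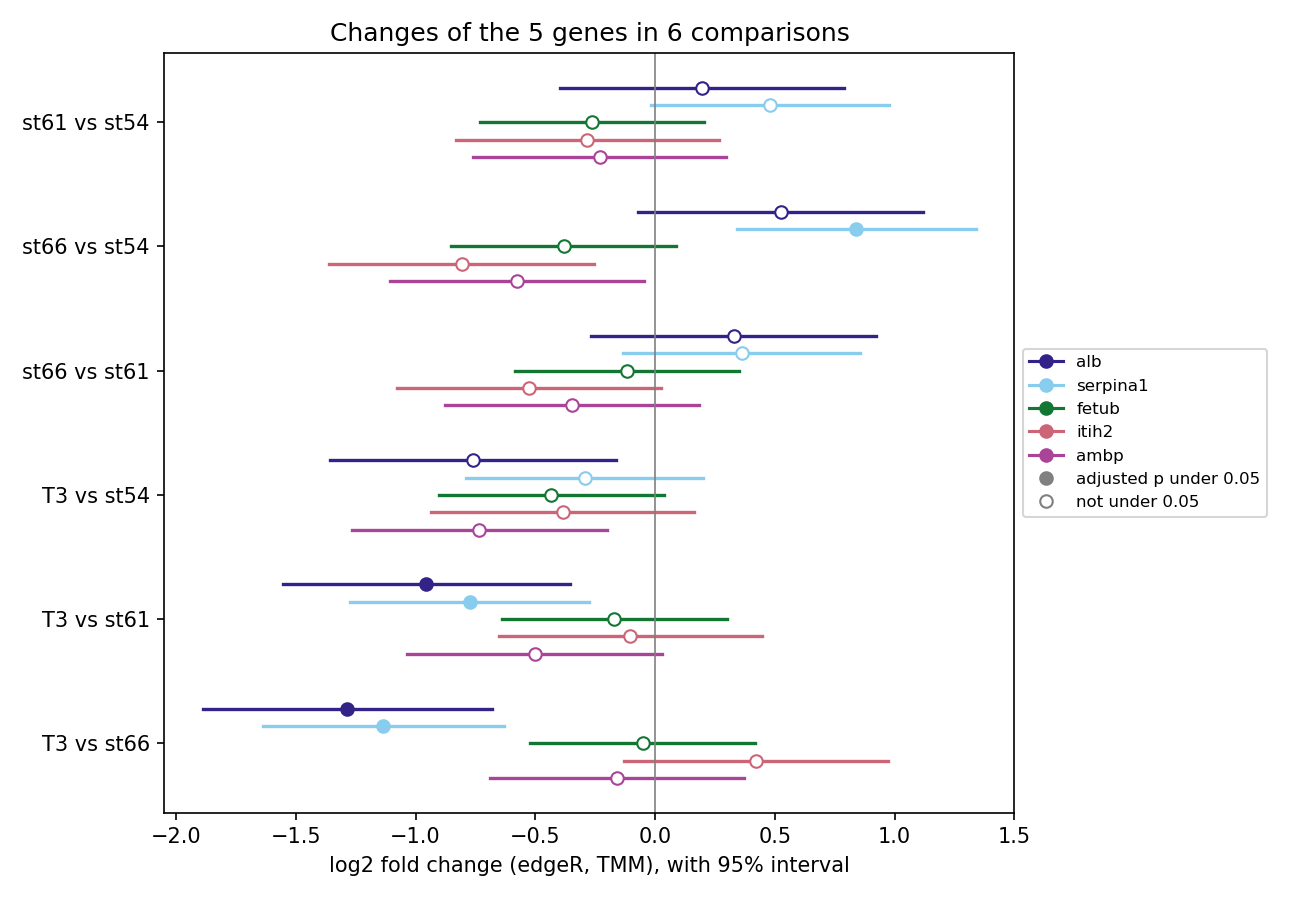
Log2 fold changes of the 5 genes in the 6 comparisons (horizontal axis; edgeR with TMM scaling), with 95% intervals and filled points at an adjusted p under 0.05. *serpina1* lies above 0 in both comparisons with st54 by stage (0.48 and 0.84), and *alb* and *serpina1* lie below 0 in T3 against st61 and st66.

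After 18 h of T3 in stage 54 tadpoles none of the 5 transcripts rose, and *alb* and *ambp* had the largest changes downward. In T3 *alb* was at 0.591 of its st54 level (log2 change -0.76, standard error 0.273, 95% interval -1.36 to -0.16, edgeR adjusted p = 0.0759). *ambp* was at 0.601 of its st54 level (log2 change -0.73, interval -1.27 to -0.20, edgeR adjusted p = 0.0590). In both genes every T3 library lay below every st54 library, by CPM as well as after TMM scaling. *fetub* (-0.43, interval -0.90 to 0.04), *itih2* (-0.39, interval -0.94 to 0.16) and *serpina1* (-0.29, interval -0.79 to 0.20) changed less, and on the CPM scale their T3 libraries overlapped those of st54. After TMM scaling every T3 library lay below every st54 library in *fetub* and *serpina1* too, and only *itih2* overlapped. The share of all genes separated in this way is not given here.

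None of the 5 genes was called in that comparison by edgeR, against 9.47% of all genes called higher and 7.55% called lower. 2 of the 5 had an unadjusted p under 0.05, and DESeq2 called 3 lower: *alb* (adjusted p = 0.0121), *fetub* (0.0405) and *ambp* (0.00583). The same 3 were called lower by edgeR when the fit held the st54 and T3 libraries alone (adjusted p = 0.00822, 0.0338 and 0.00600) or left out st66 replicate 1 (adjusted p = 0.00573, 0.0386 and 0.00434), and *ambp* also without st66 replicate 2 (adjusted p = 0.0444). The shares of all genes called by DESeq2 or in these fits, or with an unadjusted p under 0.05, are not given here. Size depended on scaling, since TMM factors were 1.19 to 1.25 in T3 and 0.977 to 0.997 in st54. Plain column totals moved the median of all genes in this comparison by 0.302 on the log2 scale, and on that scale *alb* changed by -0.46, *ambp* by -0.43 and *serpina1* by 0.01. Relative to the median of all genes on that scale they were at -0.71, -0.69 and -0.25. Of the 12 hepatocyte markers outside the 5 genes, edgeR called 0 higher and 2 lower with T3. Their median log2 change after TMM scaling was -0.34, against -0.05 over all genes. Of the 8 endothelial markers 1 was called higher, and no fibroblast, erythroid, myeloid, bile duct or pancreas marker was called. The part of such shifts in the changes of the 5 genes was not tested.

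*alb* and *serpina1* were both lower in T3 than in st61, and lower still against st66. The T3 animals were at stage 54, so these comparisons differ in stage as well as in treatment. Against untreated st54, *serpina1* changed by 0.48 on the log2 scale in st61 and by -0.29 in T3, neither of them called. Against st61, *alb* was 1.94-fold lower (ratio 0.516, interval 0.340 to 0.781, edgeR adjusted p = 0.0204) and *serpina1* 1.71-fold lower (ratio 0.585, interval 0.414 to 0.827, adjusted p = 0.0230). The other 3 were not called: *fetub* changed by -0.17 on the log2 scale (interval -0.64 to 0.30), *itih2* by -0.10 (-0.65 to 0.45) and *ambp* by -0.50 (-1.03 to 0.03). The 2 calls stand against 16.6% of all genes called lower and 16.6% called higher. Of the markers, 7 of 8 for fibroblasts and 3 of 4 for bile duct were called lower in T3 than in st61, and 5 of 12 for hepatocytes were lower and 2 higher, and their part was not tested. With the 3 T3 libraries summed to 1, both calls ended (edgeR adjusted p = 0.287 and 0.307). They also ended without T3 replicate 1 (0.0842 and 0.0976), T3 replicate 2 (0.0717 and 0.0825), T3 replicate 3 (0.0586 and 0.0605) or st61 replicate 1 (0.0536 and 0.0703), that of *alb* without st61 replicate 3 (0.0654) and that of *serpina1* without st61 replicate 2 (0.0546). Without st66 replicate 1 *ambp* was called lower as well (adjusted p = 0.0170).

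In T3 *alb* was at 0.411 of its st66 level (log2 change -1.28, interval -1.89 to -0.68, edgeR adjusted p = 0.00659) and *serpina1* at 0.456 (log2 change -1.13, interval -1.64 to -0.63, adjusted p = 0.00493). *itih2* changed by 0.42 (interval -0.13 to 0.97), *fetub* by -0.05 (-0.52 to 0.42) and *ambp* by -0.16 (-0.69 to 0.37), none of them called. 11.6% of all genes were called higher and 17.1% lower in this comparison. Of the markers, 7 of 8 for fibroblasts and 3 of 4 for bile duct were called lower in T3 than in st66, 4 of 8 erythroid ones were lower and 1 higher, and 4 of 12 for hepatocytes were lower and 2 higher, and their part was not tested. Both calls ended with the T3 libraries summed (edgeR adjusted p = 0.233 and 0.218), and that of *alb* also ended with st66 replicate 1 as the only st66 library (-0.67, adjusted p = 0.0539). On plain column totals, which moved the median of all genes by 0.424, *itih2* was called higher in T3 (0.86, adjusted p = 0.0346). The T3 and stage comparisons share the st54 libraries, and the comparisons with T3 share the T3 libraries, so that their values are not independent.

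Ratios of genes within a library do not depend on scaling, and among the stages the ratios to *alb* moved in different directions. Per length, *fetub* was at 0.759 ± 0.139 of *alb* in st54, 0.553 ± 0.0994 in st61, 0.416 ± 0.0770 in st66, with 0.939 ± 0.00240 in T3. *ambp* was at 0.722 ± 0.120 of *alb* in st54, 0.531 ± 0.0286 in st61, 0.337 ± 0.0187 in st66, with 0.727 ± 0.0168 in T3. Both ratios were lower in every st61 and st66 library than in every st54 library, while for *ambp* the T3 libraries lay within the st54 range. *serpina1* was at 0.426 ± 0.0521 of *alb* in st54, 0.520 ± 0.0695 in st61, 0.538 ± 0.0540 in st66, with 0.583 ± 0.00555 in T3, so that T3 lay above st54 in this ratio. *itih2* was at 0.285 ± 0.0512 of *alb* in st54, 0.210 ± 0.0414 in st61, 0.125 ± 0.0565 in st66, with 0.374 ± 0.00757 in T3. Its st54 and st61 libraries overlapped. With 3 libraries against 3 an exact permutation test cannot give a p below 0.1, and no test of a ratio was made.

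The 2 parts of the inter-alpha-trypsin inhibitor did not keep a fixed ratio across libraries. *itih2* per length was at 0.408 ± 0.127 of *ambp* in st54, 0.395 ± 0.0693 in st61, 0.367 ± 0.147 in st66, with 0.514 ± 0.00671 in T3. The ratio was lowest in st66 replicate 3 (0.260) and st54 replicate 3 (0.271) and highest in st66 replicate 1 (0.534), so the 3 libraries of st66 covered the whole range. Ribosomal protein genes took 16.8% and 12.9% of the counts in the 2 libraries with the lowest ratios, against 7.94% in st66 replicate 1. The part of such differences between libraries in this ratio was not tested.

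**Figure D3:**
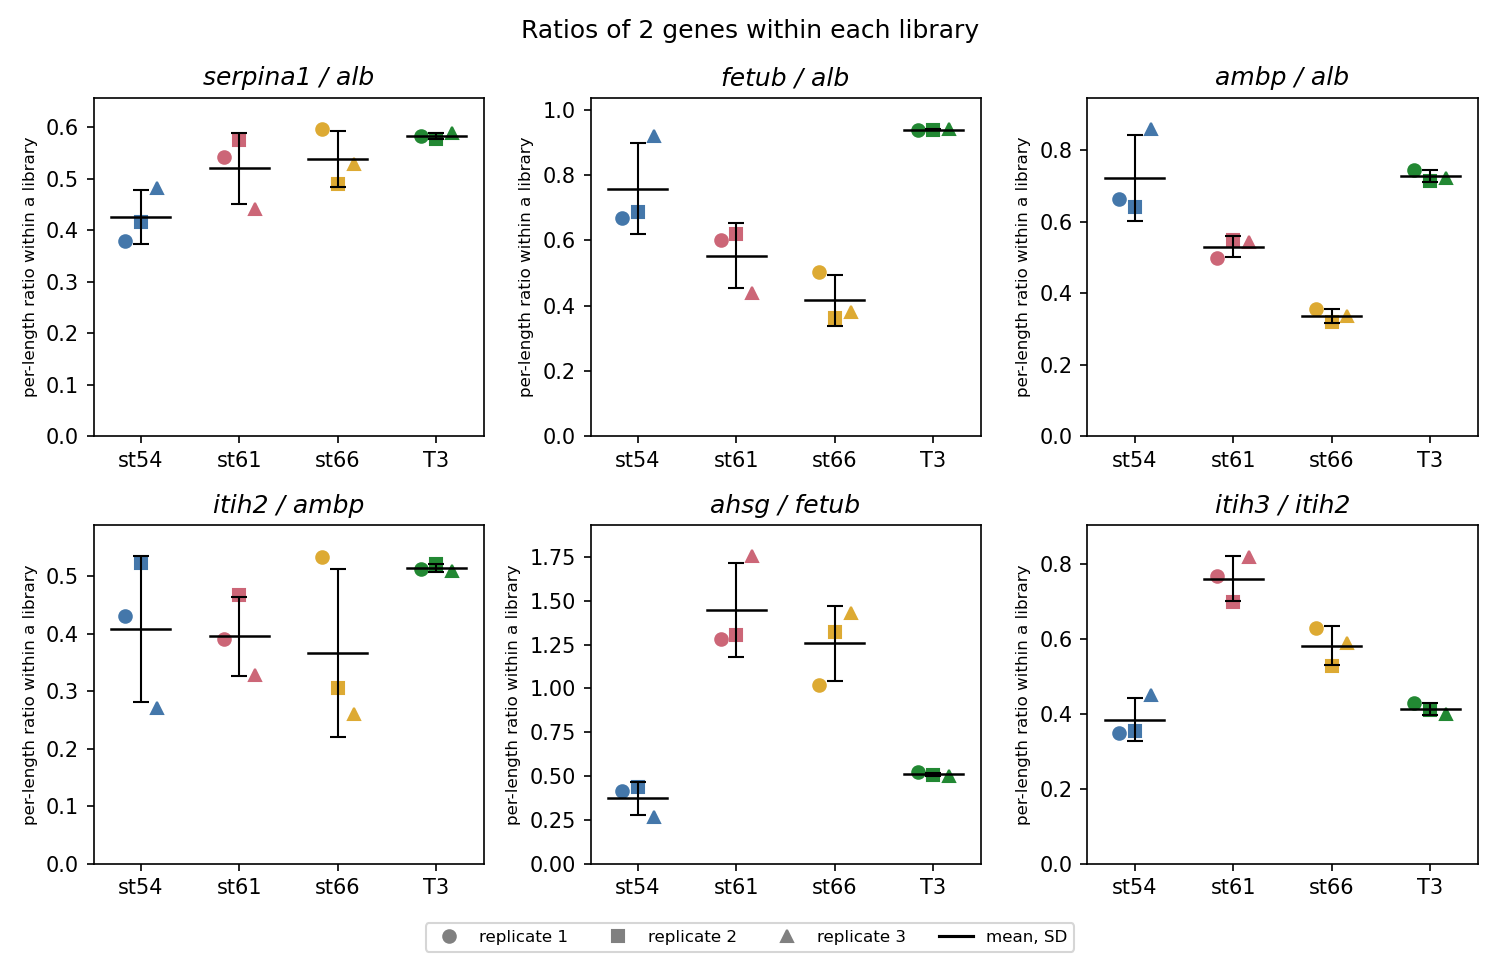
Per-length ratios of 2 genes within each library (vertical axes, from 0), by group, with the replicate number as symbol and bars for the mean and SD. Relative to *alb*, *fetub* and *ambp* are lower in every st61 and st66 library than in every st54 library, and the ratios of *ahsg* to *fetub* and *itih3* to *itih2* are higher in st61 and st66 than in st54.

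Several close relatives of the 5 genes were called between st54 and st61, where none of the 5 was, and the fetuins were a first case. *ahsg* encodes fetuin-A, which in mammals binds calcium phosphate in plasma, and lies next to *fetub* on the same strand (chromosome 5, 106000217 to 106011526, 7991 bases away). It rose 3.24-fold from st54 to st61 (1756 ± 351 to 5687 ± 606 TMM-scaled CPM, edgeR adjusted p = 0.00132) and was 2.65-fold higher in st66 than in st54 (adjusted p = 0.00535). With T3 it was at 1.02 of its st54 level (adjusted p = 0.949). *ahsg* was the 1 called gene among the 3 relatives tested, against 10.0% of all genes called higher in st61 and 8.23% in st66 than in st54. *hrg*, the histidine-rich glycoprotein gene on the other side of *fetub* (11327 bases away), and *kng1*, the kininogen gene beyond it, were not called in any of the 6 comparisons.

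The balance of the 2 fetuin transcripts turned over between st54 and st61. *ahsg* per length was at 0.417, 0.438 and 0.264 of *fetub* in st54 and at 1.28, 1.30 and 1.76 of it in st61. In st66 it was at 1.02, 1.32 and 1.43 of *fetub*, and in T3 at 0.520, 0.507 and 0.501. *fetub* was thus the more abundant transcript in every st54 and T3 library and *ahsg* in every st61 and st66 library. This ratio and those of *itih3* and *serpina3k* below were chosen after their values were seen and are given as descriptions.

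Among the heavy chain genes 2 of 3 tested relatives of *itih2* were called higher at st61 and none lower, against 10.0% and 8.85% of all genes. Over the alternatives 0 to 2 were called higher. From st61 to st66 the same 2 were called lower and none higher, against 4.28% and 5.75% of all genes. *itih3*, which encodes another heavy chain of the inter-alpha-trypsin inhibitors, rose 1.66-fold from st54 to st61 (1920 ± 295 to 3194 ± 165 TMM-scaled CPM, edgeR adjusted p = 0.0343) and fell 1.88-fold from st61 to st66 (adjusted p = 0.0226). *itih5*, the neighbour of *itih2* on the opposite strand (13364 bases away), rose 1.77-fold at st61 (adjusted p = 0.00749) and was 1.96-fold lower in st66 than in st54 (adjusted p = 0.00512), at low levels (20.01 ± 3.17, 35.5 ± 5.16 and 10.1 ± 1.99 TMM-scaled CPM by stage). *itih4* was not called in any of the 6 comparisons, and *itih6* did not pass the filter on low counts. *itih3* per length was at 0.384 ± 0.0565 of *itih2* in st54, 0.760 ± 0.0605 in st61, 0.581 ± 0.0519 in st66, with 0.412 ± 0.0152 in T3. With T3, *itih3* was at 0.842 of its st54 level (adjusted p = 0.440) and no heavy chain gene was called. The calls of *itih3* ended in 11 of 24 alternatives at st61 and 8 of 24 at st66 against st61.

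**Figure D4:**
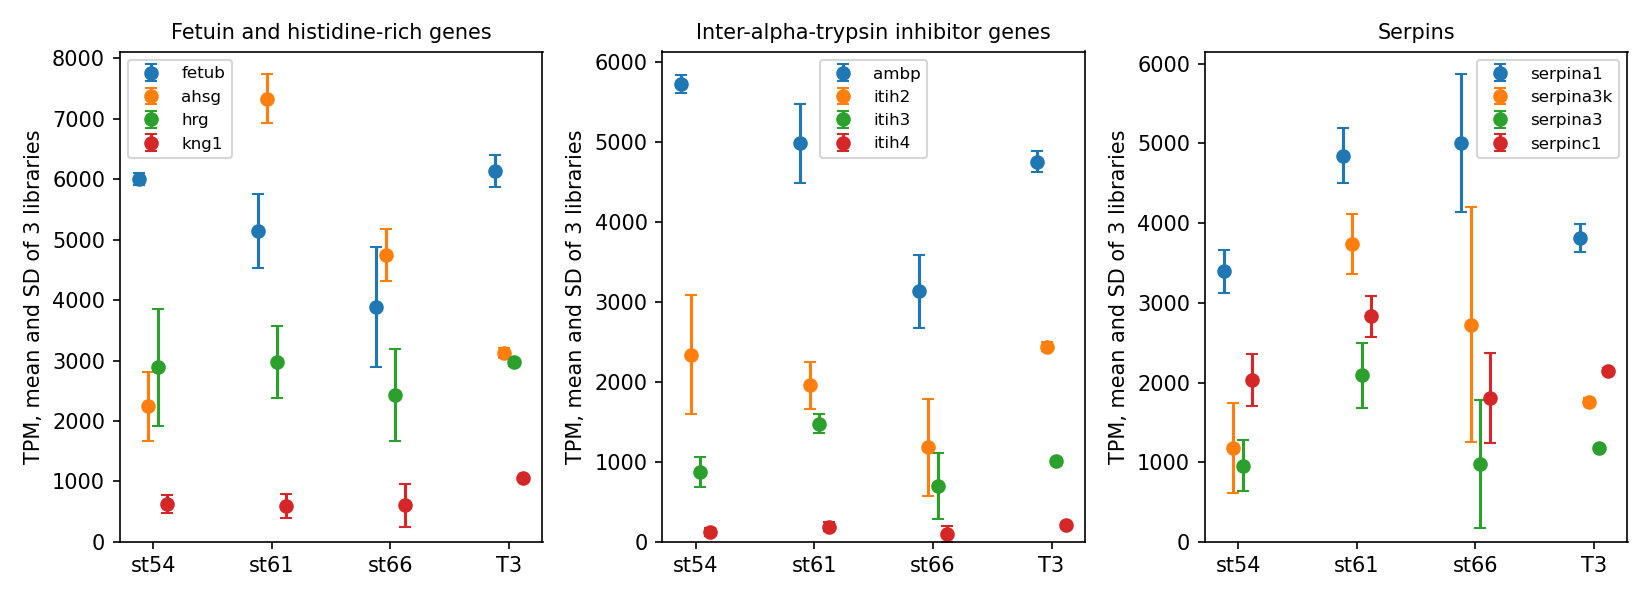
Mean and SD (n = 3) in TPM (vertical axes, from 0) of *fetub*, *ambp*, *itih2* and *serpina1* beside relatives, by group. *ahsg* lies below *fetub* in st54 and T3 and above it in st61 and st66, and *itih3* and *serpina3k* have their highest means in st61.

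*serpina1* closes a run of serpin genes on the minus strand of chromosome 8 that starts with *serpina10* (88258620 to 88269319) and holds *serpina3m*, *serpina3* and *serpina3k* (88326900 to 88331769). Within 100 kb of *serpina1* the table lists 9 other genes, 8 of them on the same strand. This window was chosen after values had been seen. The genes between *serpina10* and *serpina1* were all called higher in st61 than in st54 by edgeR: *serpina3k* by 1.65 on the log2 scale (adjusted p = 0.00234), *serpina3m* by 1.52 (0.00660), *serpina3* by 1.11 (0.0306), and LOC105948230, LOC116406470 and LOC100488834 by 1.39, 2.68 and 2.15 (0.00122, 0.00108 and 0.000145). Over all genes 10.0% were called higher. The call of *serpina3* ended in 9 of 24 alternatives and those of *serpina3k* and LOC100488834 in 0. Alternatives for the others are not given here. *serpina1* itself changed by 0.48 and was not called. Reads of such neighbouring copies could have been split or merged in the counting, so the values of single genes of the run are uncertain.

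*serpina10*, which encodes an inhibitor of coagulation factor X in mammals, went the other way. It was 1.79-fold lower in st61 than in st54 (edgeR adjusted p = 0.0399) and 1.80-fold higher with T3 (423.9 ± 116 to 762 ± 39.1 TMM-scaled CPM, adjusted p = 0.0427). Both calls were close to the threshold and ended in 13 and 12 of 24 alternatives. None of the other genes of the run was called in T3 against st54. *serpina3k* per length was at 0.341 ± 0.135 of *serpina1* in st54, 0.771 ± 0.0314 in st61, 0.526 ± 0.198 in st66, with 0.462 ± 0.0102 in T3.

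Of the 20 other genes in the table whose symbol starts with serpin, which leaves out the LOC genes of the run, 16 were tested. At st61 5 were called higher and 1 lower, against 10.0% and 8.85% of all genes (median log2 change 0.44, against -0.03 over all genes). Those with the smallest adjusted p were *serpinh1*, a collagen chaperone of the endoplasmic reticulum (4.42-fold, adjusted p = 5.55e-05), *serpinb4*, which had no counts in st54 and 1.22 ± 0.165 TMM-scaled CPM in st61, and *serpina3k*. At st66 3 were called higher than in st54 and 1 lower, against 8.23% and 5.48% of all genes, with *serpina3k* at 2.59-fold (adjusted p = 0.00852). With T3 2 were called higher and 1 lower, against 9.47% and 7.55% of all genes. The lower one was *serpinf1*, the gene of pigment epithelium-derived factor (1.81-fold, adjusted p = 0.0360), whose call ended in 9 of 24 alternatives (adjusted p up to 0.476). In T3 against st61 9 were lower and 1 higher, against 16.6% of all genes in each direction, with a median log2 change of -0.93 against 0.00 over all genes. *serpinc1*, the antithrombin gene, was among the lower ones (1.78-fold, adjusted p = 0.00843).

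Of 16 other secreted proteins tested (carriers, lipocalins, pentraxins, the alpha-2-macroglobulin family, prothrombin and the amylase of *amy2a*), 3 were called higher and 3 lower at st61 in edgeR, against 10.0% and 8.85% of all genes. *amy2a*, also a marker of exocrine pancreas, was 1 of the 3 lower. *ttr*, which encodes the thyroid hormone carrier transthyretin, was 6.97-fold lower in st61 than in st54 (998 ± 188 to 143 ± 20.1 TMM-scaled CPM, adjusted p = 1.93e-05) and 2.07-fold lower with T3 (adjusted p = 0.0111, a call that ended in 5 of 24 alternatives). *a2ml1*, of the alpha-2-macroglobulin family of protease traps, was 7.10-fold lower in st61 (adjusted p = 0.000507) and at 0.985 of its st54 level with T3. *f2*, the prothrombin gene, rose 1.80-fold at st61 (adjusted p = 0.0151). *gc*, the vitamin D binding protein gene and the only other albumin family gene in the table, was at 1007 ± 344, 1215 ± 211, 1040 ± 199 and 877 ± 36.3 TMM-scaled CPM in st54, st61, st66 and T3 and was not called in any comparison. With T3, 0 of the 16 were called higher and 2 lower than in st54, against 9.47% and 7.55% of all genes, the other being *crp.4*, whose call ended in 6 of 24 alternatives. The median log2 change of the 16 with T3 was -0.39, against -0.05 over all genes.

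Transcripts of proteases and of the hyaluronan matrix, which products of the 5 genes act on or with in mammals, were counted next. Of 14 proteases tested 2 were called higher and 3 lower at st61, against 10.0% and 8.85% of all genes. The 3 lower were copies of the membrane protease gene *tmprss2*: *tmprss2.5* fell from 86.7 ± 30.1 to 2.62 ± 1.02 TMM-scaled CPM (adjusted p = 7.27e-06) and stood at 30.0 ± 5.72 in st66, with 46.7 ± 0.914 in T3, with *tmprss2.4* and *tmprss2.2* also lower. Reads could be shared among these copies. With T3, *st14*, the matriptase gene, rose 2.07-fold (adjusted p = 0.0144) and *tmprss2.4* fell 1.99-fold (adjusted p = 0.0281). These calls ended in 5 and 8 of 24 alternatives, among them the fit with the T3 libraries summed (adjusted p = 0.285 and 0.461). Of 8 genes of the hyaluronan matrix and its receptors tested, 4 were higher and 1 lower in st61, among them *lyve1*, a hyaluronan receptor of endothelium (2.49-fold, adjusted p = 0.0153), *vcan*, the versican gene (0.204 ± 0.251 to 1.64 ± 1.01 TMM-scaled CPM), and *ptx3*, a pentraxin that binds heavy chains in mammals, which was lower. None was called in T3 against st54, where *stab2*, a scavenger receptor of endothelium that takes up hyaluronan and the most abundant of the list, was at 1097 ± 3.66 against 500.3 ± 344 TMM-scaled CPM (adjusted p = 0.174). Endothelial markers summed to 601 to 1137 CPM in st54 and 1225 to 2115 CPM in st61, and their part in the values of *lyve1* was not tested.

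Of 21 tested regulators of liver genes 2 were called higher and 4 lower at st61, against 10.0% and 8.85% of all genes. *hnf4a*, whose product is a central activator of plasma protein genes in mammalian liver, was 1.66-fold lower in st61 (edgeR adjusted p = 0.0461) and 1.83-fold lower in st66 (144 ± 41.6 to 79.1 ± 7.45 TMM-scaled CPM, adjusted p = 0.0286), and at 1.12 of its st54 level with T3 (adjusted p = 0.662). Its 2 calls ended in 13 and 9 of 24 alternatives. *dbp* and *tef*, of the PAR family of bZIP factors (in mammals *Dbp* was first described as a factor binding the albumin promoter), were 1.95-fold (adjusted p = 0.000817) and 2.41-fold (adjusted p = 0.00532) lower in st61. With T3 *stat3.2*, a copy of the gene for a mediator of cytokine signals, rose 2.18-fold (adjusted p = 0.00301), and *foxa2* (1.86-fold, adjusted p = 0.0103) and *nr2f2* (1.79-fold, adjusted p = 0.0115) fell. With the T3 libraries summed these calls ended (adjusted p = 0.149, 0.355 and 0.362), and over all 24 alternatives they ended in 1, 4 and 6.

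The immediate neighbours of *alb* and *ambp* did not share their levels. *rassf6* (2729 bases from *alb*) was at 68.4 to 130 CPM by group mean, and *obp* and *nrarp* on the sides of *ambp* were at 2.14 to 5.84 and 6.06 to 10.1 CPM. LOC101732943, on the other side of *alb* (15066 bases away), was at 0.8445 to 3.70 CPM. None of these genes was called among the stages or in T3 against st54. In T3 against st66, where *alb* was called lower, edgeR also called *rassf6* (log2 change -1.07, adjusted p = 0.0408) and LOC101732943 (-2.49, adjusted p = 0.0227) lower. Those calls ended in 14 and 7 of 24 alternatives, and neither neighbour of *ambp* was called there.

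Genes were also ranked by likeness to each of the 5, as the root mean square difference of log2(CPM + 1) after centring each gene over the 12 libraries, among 1538 genes with a mean of at least 100 CPM. Smaller values mean closer patterns, and points share library and depth. Nearest to *alb* were *ftmt* (0.131), *ahcy* (0.136) and *gars1* (0.16), with *serpina1* at rank 23 (0.209). Nearest to *serpina1* were *ipo7* (0.107), *eif3h* (0.138) and *ctsb* (0.146). Nearest to *fetub* were *apom* (0.120), the gene of a lipocalin carried on lipoproteins, *atp5mc1* (0.150) and *laptm4a* (0.155), and nearest to *ambp* were *prdx1* (0.137), *atp5mc1* (0.159) and *selenop2l* (0.171), with *fetub* at rank 8 (0.205). *itih2* was closest to *ehhadh* (0.166), LOC116410405 (0.182) and *sftpa1* (0.209). The median over all genes was 0.507 to 0.616, and *itih2* differed from *alb* (0.684) and *serpina1* (0.700) by more than its own median of 0.616.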

How the data were processed

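The authors deposited raw counts of reads over genes for the 12 libraries of *Xenopus tropicalis* liver, and these were analysed unchanged. The submitters' processing notes name cutadapt 3.4 (trimming) and STAR 2.7.8a (alignment), and duplicates had been marked before counting, per the file headers. Which genome build, annotation and strand setting were used, and whether duplicates were dropped, is not given in the sources used here. Genes broken over several lines (2 genes, 6 lines) were left out. Counts of near-identical copies and of overlapping genes are uncertain.

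The 5 genes, the lists of related genes and the markers were chosen with earlier results of these data known. edgeR 4.0.16 (limma 3.58.1, R 4.3.3) kept 15102 genes (filterByExpr by group), scaled by TMM and fitted 1 robust quasi-likelihood model to all 12 libraries with 8 residual degrees of freedom. A call is a Benjamini-Hochberg adjusted p under 0.05. Log2 changes have 95% intervals. From each list the called genes with the smallest adjusted p were named, up to 3 per comparison, or the most abundant where none was called, and some of these names are left out. The p-values set each change against a spread per gene that all 4 groups share. The groups differed in spread, with a biological coefficient of variation of 2.6% in T3 and 23.9% to 40.2% in the others. Same-numbered libraries did not deviate together (18 pairs, correlation -0.11 to 0.158, 1 pair over 0.1), so the numbers were not used as a block. Alternatives were DESeq2 1.42.0, RLE, upper-quartile and no factors, library sizes without the 20 most abundant genes, no low-count filter, a replicate block, 2-group fits, summed T3 libraries, st66 replicate 1 alone, non-robust fits and each library left out. Simulated data with known changes were used to check the fit, with the same spread in every group. That check cannot show how the fit behaves under the unequal spread of these groups.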

Additional observations from a re-analysis of the deposited data

How the results depend on the processing

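Over the 30 changes (5 genes, 6 comparisons) and 24 alternatives each, 628 of 720 values kept direction and side of the threshold, 47 passed it where the main value had not, 29 no longer passed and 16 changed sign. The cause of these shifts was not tested except where an alternative has fewer libraries. Values here are log2 changes.

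For *serpina1* in st66 against st54 the call ended with no low-count filter (0.81), with the replicate block (0.82, adjusted p = 0.0518), in the fit of the 2 groups alone (0.79), with T3 summed (0.80) and with st66 replicate 1 alone (0.42). Under the replicate block no other call among the 30 changed. With T3 summed, the calls of *alb* and *serpina1* ended against st61 (-0.96 and -0.78) and st66 (-1.22 and -1.08).

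With st66 replicate 1 as the only st66 library, *alb* changed sign in st66 against st54 (-0.081) and st61 (-0.28), *serpina1* changed sign against st61 (-0.061), and the call of *alb* in T3 against st66 ended (-0.67). *serpina1* was called in st61 against st54 (0.48). *fetub* (-0.65) and *ambp* (-1.08) were called in st66 against st54, *ambp* (-0.85) in st66 against st61, and *fetub* (0.22) and *ambp* (0.36) changed sign in T3 against st66. In T3 against st54 *alb* (-0.75), *fetub* (-0.43) and *ambp* (-0.73) were called, and *ambp* (-0.50) against st61.

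With no factors *fetub* (-0.57), *itih2* (-0.94) and *ambp* (-0.79) were called in st66 against st54 and *itih2* (0.86) in T3 against st66, while *serpina1* changed sign in T3 against st54 (0.0063), *fetub* (0.18) and *itih2* (0.24) against st61, and *fetub* (0.43) and *ambp* (0.36) against st66. Plain totals moved the median of all genes by 0.302, 0.346 and 0.424 in T3 against st54, st61 and st66 and by -0.128 in st66 against st54. RLE and upper-quartile factors called *itih2* in st66 against st54 (-0.83 and -0.84), and upper-quartile factors *ambp* in T3 against st54 (-0.82).

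DESeq2 called *itih2* (-0.83) and *ambp* (-0.60) in st66 against st54 and *alb* (-0.78), *fetub* (-0.46) and *ambp* (-0.76) in T3 against st54. Fits of 2 groups alone called *alb* (-0.76), *fetub* (-0.43) and *ambp* (-0.73) in T3 against st54 and *ambp* (-0.51) against st61. *fetub* in T3 against st66 also changed sign with no low-count filter (0.015) and with T3 summed (0.0075).

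With st54 replicate 3 and st66 replicate 1 both left out, added after seeing the data, *serpina1* (0.48) and *itih2* (-0.48) were called in st61 against st54, *alb* (0.67) and *itih2* (-1.07) in st66 against st54, *alb* (0.55), *serpina1* (0.53) and *itih2* (-0.59) in st66 against st61, *alb* (-0.84), *itih2* (-0.58) and *ambp* (-0.69) in T3 against st54, *ambp* (-0.50) in T3 against st61 and *itih2* (0.50) in T3 against st66.

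Leaving out 1 library at a time gave the following ranges where a call or sign changed. In st61 against st54 *serpina1* ran from 0.44 to 0.52. In st66 against st54 *alb* ran from 0.24 to 0.75, *serpina1* from 0.64 to 1.01 and *itih2* from -1.003 to -0.63, and against st61 *alb* ran from 0.046 to 0.55 and *serpina1* from 0.16 to 0.53. In T3 against st54 *alb* ran from -0.84 to -0.70, *fetub* from -0.49 to -0.37 and *ambp* from -0.78 to -0.69. Against st61 *alb* ran from -1.04 to -0.86, *serpina1* from -0.83 to -0.71 (both ended in 5 of 12) and *ambp* from -0.57 to -0.38, and against st66 *fetub* ran from -0.17 to 0.13 and *ambp* from -0.35 to 0.078.

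Counts of called genes in the lists of relatives moved as well. In st61 against st54 the serpins called higher numbered 5 (4 to 8 over the alternatives), the carriers called higher 3 (0 to 6), the heavy chain relatives 2 (0 to 2), the hyaluronan matrix genes 4 (1 to 5) and the regulators called lower 4 (2 to 5). In T3 against st54 the carriers called lower numbered 2 (0 to 7), the proteases called lower 1 (0 to 9) and the regulators called lower 2 (0 to 7).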
